A study of Mus musculus with 12 samples.

Results

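The thyrotropin (TSH) receptor gene *Tshr* and 9 genes of the cAMP cascade downstream of it (*Gnas*, *Adcy7*, *Adcy9*, *Pde4a*, *Pde4b*, *Pde4d*, *Prkar1a*, *Creb1* and *Crem*) were followed across all 12 RNA-seq libraries of the study. They were found by symbol in the table of read counts, where each of the 10 symbols stood on a single row, out of 55335 genes listed. Bone-marrow-derived macrophages (BMDMs, macrophages grown from marrow in culture) and whole livers were compared between *Tshr* f/f mice and *Tshr* MKO mice (f/f and MKO in the text that follows), in 4 groups of 3 libraries. All animals were male littermates carrying the floxed receptor allele, and the MKO animals carried *Lyz2*-Cre as well, a recombinase driven by the lysozyme promoter of macrophages and other myeloid cells such as neutrophils. The labels give an age of 6 weeks for the mice that marrow came from, and the study's methods a somewhat wider range. Cells of both genotypes were grown for 7 days with M-CSF at 10 ng/mL and then given TSH at 1 ng/mL for 24 h, so no culture without the hormone was compared. For the livers, mice began a high-fat diet (HFD) at 6 weeks of age and stayed on it for 9 weeks, and were killed after an 8-h fast and 5 min of insulin at 1.5 U/kg. No group carried the Cre without the floxed allele, and the liver RNA came from all cell types of the organ. The study's methods speak of 3 RNA samples per group from littermate mice, but the labels tie no library to an animal, so that the p-values below measure the spread between these samples, whatever its source.

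TSH acts on a G protein-coupled receptor. Earlier work cited by the study describes G13- and G15-dependent activation of macrophages by TSH, and which route acted here was not tested. The receptor also couples to the stimulatory G protein, whose alpha subunit is made from *Gnas*. That subunit switches on adenylyl cyclases, which make cAMP from ATP, and cAMP releases the catalytic subunits of protein kinase A (PKA) from regulatory subunits such as the product of *Prkar1a*. PKA phosphorylates CREB (*Creb1*) and related factors, which bind cAMP response elements in DNA, whereas phosphodiesterases of the PDE4 family break cAMP down and so end the signal. In macrophages a rise in cAMP is known to dampen the output of inflammatory cytokines, and in liver the same cascade carries the glucagon signal that raises glucose production.

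CREB and its relatives recognise the element TGACGTCA and, less tightly, the shorter forms TGACG and CGTCA. The 100 bases before a RefSeq start site (GRCm38.p6) are shown for the 4 genes with an unadjusted p under 0.05 between the BMDM genotypes, with the short form in capitals, and for *Prkar1a*, the gene here with the full element, also in capitals. These stretches were read from chr8:88282892-88282991 on the plus strand (*Adcy7*), chr16:4420499-4420598 on the minus strand (*Adcy9*), chr9:21184001-21184100 on the plus strand (*Pde4a*), chr4:102421455-102421554 on the plus strand (*Pde4b*) and chr11:109650849-109650948 on the plus strand (*Prkar1a*).
Adcy7: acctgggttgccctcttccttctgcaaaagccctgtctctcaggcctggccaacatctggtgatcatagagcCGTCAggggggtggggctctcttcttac
Adcy9: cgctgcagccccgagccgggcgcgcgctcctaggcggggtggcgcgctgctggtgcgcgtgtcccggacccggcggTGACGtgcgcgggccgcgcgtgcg
Pde4a: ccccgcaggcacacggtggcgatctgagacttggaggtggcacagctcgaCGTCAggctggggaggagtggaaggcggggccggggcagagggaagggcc
Pde4b: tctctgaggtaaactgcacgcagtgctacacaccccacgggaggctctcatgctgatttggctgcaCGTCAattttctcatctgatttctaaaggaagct
Prkar1a: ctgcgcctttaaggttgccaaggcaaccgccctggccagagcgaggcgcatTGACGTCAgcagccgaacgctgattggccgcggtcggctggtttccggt

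The short forms begin 28, 24, 50 and 34 bases before the start in *Adcy7*, *Adcy9*, *Pde4a* and *Pde4b*, and the full element of *Prkar1a* begins 49 bases before it. In this stretch, 10.5% of all 32851 promoters in the table held TGACG or CGTCA, which are the same letters read on either strand, and 1.15% held TGACGTCA, which contains both of them. Only windows with a match in this stretch were shown, so the printed lines cannot be set against these shares. Over the full 300-base windows of the table the shares were 20.8% and 1.79%. Counted by gene, 23.0% and 2.03% of 27025 genes had a window with a match. Of the members, 8 genes had 23 of these 300-base windows. A short form was held by 10 of them, in 6 genes, and the full one by 2, both of *Prkar1a* and overlapping each other. Overlapping windows of *Gnas* and of *Prkar1a* also counted the same short forms more than once. The members had more windows per gene than the table as a whole, so their counts are not comparable with its shares. *Gnas* held the short form in 3 of its 4 windows. It was not shown, as its BMDM genotypes did not differ at that limit (edgeR unadjusted p = 0.199). *Adcy7*, *Pde4a* and *Pde4b* each held the short form in 1 of their several windows, and the windows of *Pde4d* and *Creb1* held none. *Tshr* and *Crem* had no entry. These matches describe the letters of the windows and were tested neither for an excess nor against any binding data.

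*Tshr*, the receptor, was at or near 0 in every library. It lies on chromosome 12 at 91384563–91549808 (GENCODE M21, GRCm38, plus strand) and had 0, 0 and 2 counts in f/f BMDMs, 0, 0 and 5 in MKO BMDMs and 0 in each of the 6 livers. Neither genotype therefore held more than a few reads of it, and the only counts were in replicate 3 of each BMDM group. With 33683981–40954211 counts in a BMDM library and 28962878–40420513 in a liver library, a count of 0 allows up to 3 counts, which is 0.0687–0.115 CPM (counts scaled to a common library size with TMM factors, which allow for RNA composition) in BMDMs and 0.0714–0.106 CPM in liver, for counting error only. The gene did not pass the filter on low counts and no fold change was formed. The study's loxP sites enclose exon 10 as far as the stop codon. In the transcript Tshr-202 that exon spans 91537171–91540509 and holds 1411 of the 2292 coding bases (61.6%), but the deposited counts are per gene and not per exon, so that the deletion could not be checked. The subunits of the TSH receptor's ligands were also near 0, as *Cga* and *Tshb* had no count in any library and none of the 4 ligand genes passed the filter.

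The identity of the cells was checked by markers. All 8 macrophage markers were found in BMDMs and summed to 15164–17914 CPM in f/f and 20167–29713 CPM in MKO libraries. *Lyz2* made up that gap, as the other 7 summed to 6293–9141 and 5629–7392 CPM. *Cd14*, a coreceptor for bacterial lipopolysaccharide, was at 387, 508 and 2808 CPM in f/f and 159, 135 and 378 CPM in MKO BMDMs. Its log2 fold change was -2.46 (edgeR unadjusted p = 0.0298, adjusted p = 0.254). *Adgre1*, the F4/80 antigen, was also lower in every MKO library than in any f/f library (-0.30, edgeR unadjusted p = 0.177, adjusted p = 0.438). By log2 fold change, 4 of the 8 macrophage markers were higher and 4 lower in MKO BMDMs. The higher ones were *Lyz2*, *Cd68* (0.32), *Csf1r* (0.31) and *Fcgr1* (0.08). *Itgam* (-0.51) and *Mertk* (-0.36) were lower as well. The groups of *Cd68*, *Csf1r*, *Fcgr1*, *Itgam* and *Mertk* overlapped. The 6 hepatocyte markers were at 0 in f/f BMDMs and 0–3 counts in MKO BMDMs. The 3 stellate-cell and fibroblast markers summed to 494, 1320 and 502 CPM in f/f and 440.2, 521 and 309 CPM in MKO BMDMs, with *Lrat* at 0 and *Col1a1* and *Dcn* as the source of the sum, and to 23.1–192 and 72.6–107.5 CPM in livers labelled f/f and MKO. The 3 endothelial markers summed to 7.86–33.6 and 8.22–22.2 CPM in BMDMs and to 30.4–99.8 and 55.3–91.2 CPM in liver. The part of these cells in the members' values was not tested. Livers held 71946–93017 and 86982–88369 CPM of hepatocyte markers and 135–331 and 133.1–305 CPM of macrophage markers. One protocol label speaks of thymic samples, and the 3 T- and B-cell markers summed to 52–224 counts in a BMDM library. *Lyz2*, whose promoter drives the Cre, was itself higher in MKO BMDMs (log2 fold change 0.95, edgeR unadjusted p = 0.00813, adjusted p = 0.218). It was at 8871, 9843.5 and 8773 CPM in f/f and 16149, 14537 and 22320 CPM in MKO BMDMs. The effect of the Cre allele on *Lyz2* itself was not tested. Scaled by library totals alone, *Lyz2* ran from 24.7 to 62.7 CPM in livers labelled f/f and from 1.59 to 110.7 CPM in those labelled MKO. The lowest value was that of MKO replicate 1. There the 8 macrophage markers summed to 161 CPM with TMM factors, and the 7 without *Lyz2* to 159 CPM. The livers labelled MKO thus differed widely in *Lyz2*, and the Cre genotype of each library could not be checked. Among BMDM libraries, f/f replicate 3 stood apart with a scaling factor of 0.738, against 0.993–1.11 for the other 5. For the livers, counts printed with the study stand under the genotype heading opposite to that of the labels, so that directions in liver are given for livers as labelled.

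To determine whether cAMP pathway transcripts differed with myeloid loss of the receptor, MKO BMDMs were compared with f/f BMDMs under TSH. *Adcy7*, *Adcy9* and *Pde4a* were each higher in all MKO libraries than in any f/f library, by 1.93-, 1.93- and 1.80-fold, and *Pde4b* was 5.71-fold lower with no overlap. None of the 9 members tested passed an adjusted p of 0.05 in edgeR, as was true of all 15372 genes (0% called). At an unadjusted p under 0.05 there were 4 members, 3 higher and 1 lower, against 17.9% of all genes (7.73% higher and 10.2% lower). With DESeq2, 2 members (*Adcy7* and *Pde4b*) passed the adjusted threshold, against 7.23% of the genes it tested. The groups did not overlap in 4 members, 3 higher and 1 lower, against 28.7% of all genes (14.8% higher and 14.0% lower). The median log2 fold change of the 9 was -0.06, and over all genes it was 0.01.

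**Figure D1:**
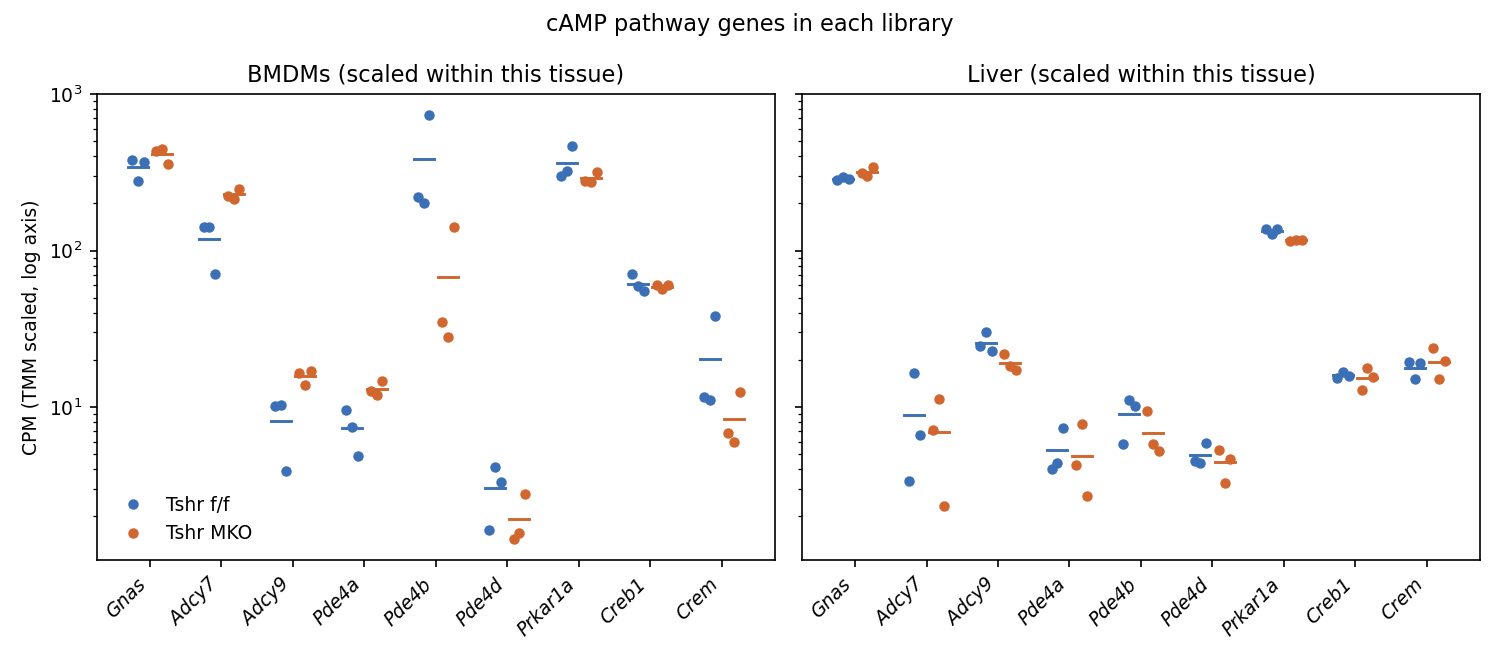
Each point is a library; the log y axis gives CPM with TMM factors computed within the tissue, and bars mark group means of n = 3 for f/f (blue) and MKO (orange). In BMDMs (left) the groups of Adcy7, Adcy9, Pde4a and Pde4b stand apart, and in liver (right) those of Gnas, Adcy9 and Prkar1a do; Tshr, at 0 to 5 counts, is not drawn.

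*Gnas*, which encodes the stimulatory alpha subunit (chromosome 2, 174284320–174346744), was at 378, 279.6 and 365 CPM in f/f BMDMs and 433, 448 and 359 CPM in MKO BMDMs. The groups overlapped, and the log2 fold change was 0.28 (SE 0.19, edgeR adjusted p = 0.462). *Nespas* on the opposite strand and *Gm20721* overlap the locus, and *Gnas* itself has 24 annotated transcripts from several promoters, which the counts do not separate. Of the 11 genes tested that encode G protein alpha subunits, *Gna12* had an unadjusted p under 0.05 (log2 fold change 1.19, SE 0.28, edgeR adjusted p = 0.218), and no other did. That was 9.09% of the 11, beside 17.9% of all genes.

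*Adcy7*, an adenylyl cyclase abundant in blood and immune cells (chromosome 8, 88272403–88329962), was at 142, 142 and 71.0 CPM in f/f BMDMs and 223, 214 and 249.0 CPM in MKO BMDMs. Replicate 3 of f/f was the lowest of the 6, and the other 2 of that group lay below all of the MKO libraries too. The log2 fold change was 0.95 (SE 0.29, edgeR unadjusted p = 0.0150, adjusted p = 0.225), and 0.69 without f/f replicate 3 (adjusted p = 0.102). Over all alternatives the adjusted p ran from 0.0380, with DESeq2, to 0.587.

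*Adcy9*, a widely expressed cyclase that forskolin activates only weakly (chromosome 16, 4287529–4420498), was at 10.1, 10.4 and 3.88 CPM in f/f BMDMs and 16.5, 13.9 and 16.9 CPM in MKO BMDMs. It showed the same order of groups as *Adcy7*, again with f/f replicate 3 lowest, and its log2 fold change was 0.95 (SE 0.37, edgeR unadjusted p = 0.0416, adjusted p = 0.264). Without that library it was 0.62, so that the 2 cyclases remained higher in MKO BMDMs by a smaller amount (adjusted p = 0.143 for *Adcy9*). Of the 7 cyclases tested, *Adcy3* was the other with an unadjusted p under 0.05, at 5.22, 4.28 and 4.22 CPM against 10.4, 9.18 and 6.58 CPM (log2 fold change 0.93, SE 0.24, edgeR adjusted p = 0.218). With *Adcy7* and *Adcy9* this made 42.9% of the 7, beside 17.9% of all genes. The other 4 cyclases, *Adcy1* and *Adcy6* among them, had unadjusted p of at least 0.0975.

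*Pde4a*, a cAMP-specific phosphodiesterase (chromosome 9, 21165714–21213248), was at 9.57, 7.49 and 4.84 CPM in f/f BMDMs and 12.7, 11.98 and 14.7 CPM in MKO BMDMs. The lowest MKO value lay above the highest f/f value, and the log2 fold change was 0.84 (SE 0.27, edgeR unadjusted p = 0.0187, adjusted p = 0.232). Leaving out f/f replicate 3 gave 0.62 (adjusted p = 0.203).

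*Pde4b*, a PDE4 gene that is induced by cAMP itself and by inflammatory stimuli (chromosome 4, 102087543–102607259), differed in the other direction. It was at 221, 202 and 737 CPM in f/f BMDMs and at 34.8, 28.1 and 140.5 CPM in MKO BMDMs. Replicate 3 was the highest in both groups, by several fold, and the highest MKO library still lay below the lowest f/f library. The log2 fold change was -2.51 (SE 0.83, edgeR unadjusted p = 0.0217, adjusted p = 0.237). It was -1.65 without f/f replicate 3 (adjusted p = 0.357) and -3.62 without MKO replicate 3, and over all alternatives the adjusted p ran from 0.0110 with DESeq2 to 0.587. The 4 neutrophil markers summed to 5.62, 29.6 and 45.6 CPM in f/f BMDMs and 4.28, 4.001 and 9.45 CPM in MKO BMDMs, highest in replicate 3 of both groups. *S100a8* gave most of that sum, and *Ly6g* and *Elane* were near 0. The 4 markers of resident liver macrophages summed to 194, 223 and 443 CPM against 110, 61.6 and 42.2 CPM, with the defining *Clec4f* at 0. That sum was mostly the scavenger receptor *Marco*, at 174, 219.6 and 421 CPM against 94.7, 50.8 and 36.1 CPM. *Timd4* was lower in MKO BMDMs too, at 10.4, 2.89 and 19.0 CPM against 2.48, 1.12 and 1.35 CPM (log2 fold change -2.70, edgeR adjusted p = 0.218). *Vsig4* differed in the other direction (log2 fold change 1.07, edgeR adjusted p = 0.509). The part of these in the *Pde4b* values was not tested.

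*Pde4d*, the third member of the family here (chromosome 13, 108449948–109953461), was scarce, at 1.63, 4.17 and 3.30 CPM in f/f BMDMs and 1.44, 1.57 and 2.77 CPM in MKO BMDMs. The groups overlapped (log2 fold change -0.65, SE 0.45, edgeR adjusted p = 0.453). Pde4 genes thus differed in direction, as *Pde4a* was higher and *Pde4b* lower in MKO BMDMs at an unadjusted p under 0.05, and the difference between them was not tested. Of the 14 cAMP phosphodiesterases tested, *Pde7a* was the only further gene at that limit, at 9.19, 11.3 and 8.29 CPM against 13.9, 12.7 and 15.9 CPM (log2 fold change 0.56, edgeR adjusted p = 0.232). With *Pde4a* and *Pde4b* this made 21.4% of the 14, beside 17.9% of all genes.

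*Prkar1a*, the regulatory subunit that holds PKA inactive (chromosome 11, 109649405–109669656), was at 300.4, 325 and 465 CPM in f/f BMDMs and 279, 273 and 317 CPM in MKO BMDMs. Its groups overlapped (log2 fold change -0.33, SE 0.22, edgeR adjusted p = 0.437), and without f/f replicate 3, the highest library, the value was -0.11. Of the 9 PKA genes tested, 3 were higher and 1 lower at an unadjusted p under 0.05 (44.4%), beside 17.9% of all genes. Those higher in MKO BMDMs were the catalytic subunits *Prkacb* (log2 fold change 0.57, edgeR adjusted p = 0.218) and *Prkaca* (0.40, adjusted p = 0.264) and the PKA inhibitor *Pkib* (1.09, adjusted p = 0.218), and the lower one was the regulatory subunit *Prkar2b* (-0.92, adjusted p = 0.264), whose groups overlapped.

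*Creb1*, the transcription factor that PKA phosphorylates (chromosome 1, 64532645–64604548), was at 70.5, 59.0 and 54.9 CPM in f/f BMDMs and 60.1, 56.5 and 59.8 CPM in MKO BMDMs. The values overlapped closely and the log2 fold change was -0.06 (SE 0.13, edgeR adjusted p = 0.804), with a positive sign under upper-quartile scaling, under library totals and without f/f replicate 1. *Crem*, whose promoters give both activators and the inducible repressor ICER (chromosome 18, 3266048–3337748), was at 11.6, 11.2 and 38.3 CPM against 6.87, 6.00 and 12.5 CPM. Like *Pde4b* it was highest in replicate 3 of each group, but here the highest MKO library lay above 2 of the f/f libraries. The log2 fold change was -1.26 (SE 0.57, edgeR unadjusted p = 0.0657, adjusted p = 0.299), and -0.44 without f/f replicate 3. *Gm6225* overlaps *Crem* on the opposite strand, and the counts do not tell the activating and repressing transcripts apart. Of the 12 CREB family genes and coactivators tested, *Crtc1* was higher (log2 fold change 0.60, edgeR adjusted p = 0.253) and *Creb5* lower (-1.28, adjusted p = 0.252) at an unadjusted p under 0.05. They were 16.7% of the 12, beside 17.9% of all genes.

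**Figure D2:**
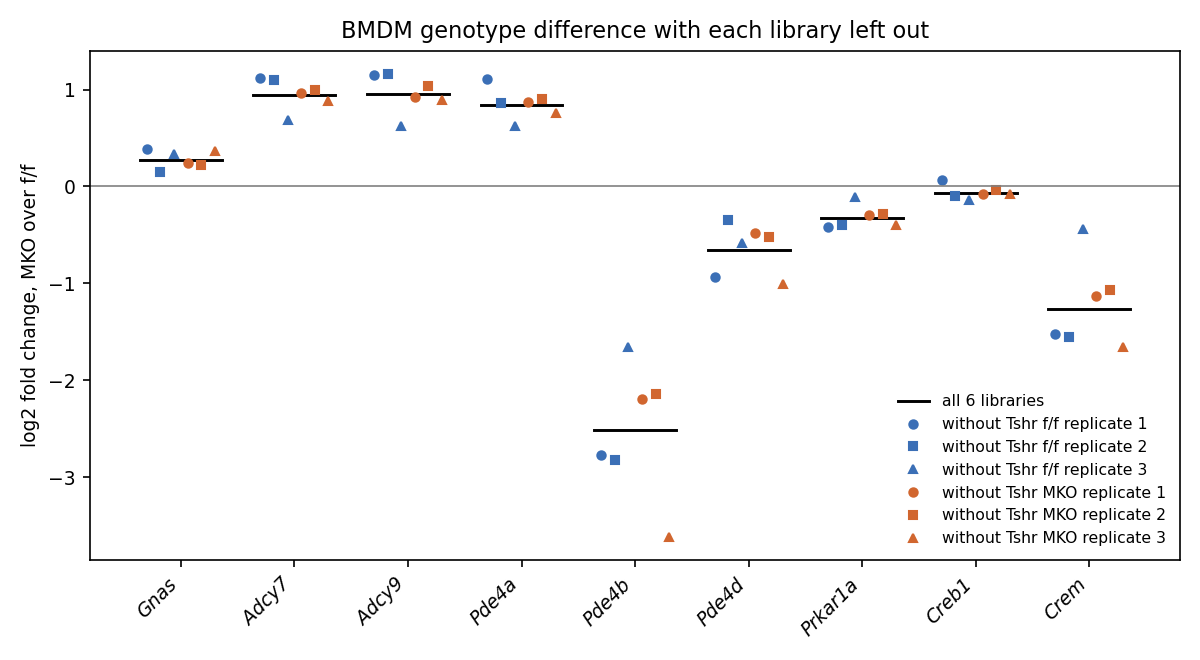
The y axis gives the BMDM log2 fold change (MKO over f/f) of each gene, with a bar for all 6 libraries and a point for each fit with 1 library left out (blue, a f/f library; orange, a MKO library). Without f/f replicate 3 (blue triangles) the values of Adcy7, Adcy9, Pde4a, Pde4b, Prkar1a and Crem lie nearer to 0, as for Pde4b at -1.65 against -2.51, and Creb1 is the gene whose points lie on both sides of 0.

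Across the wider pathway, 82 further genes were tested in BMDMs, of which 9 were higher and 9 lower in MKO BMDMs at an unadjusted p under 0.05 and 0 passed the adjusted threshold in edgeR. These 18 genes were 22.0% of the 82, beside the 17.9% of all genes. Other receptors that couple to the same G protein gave 5 of these lower genes and no higher one among 10 tested, beside 10.2% of all genes that were lower. They included the adenosine receptor *Adora2a*, at 46.2, 18.6 and 187 CPM in f/f BMDMs and 5.46, 5.95 and 7.88 CPM in MKO BMDMs (log2 fold change -3.70, SE 0.86, edgeR adjusted p = 0.218). The histamine receptor *Hrh2* (-1.35, adjusted p = 0.218) and the adenosine receptor *Adora2b* (-2.30, adjusted p = 0.223) also had separate groups. *Rgs2*, a regulator that curbs G protein signals and a CREB target, was at 18.1, 29.0 and 6.53 CPM against 77.4, 72.8 and 72.4 CPM (log2 fold change 2.05, SE 0.49, edgeR adjusted p = 0.218). *Rapgef3*, the cAMP-activated exchange factor EPAC1, was at 0.192–1.21 CPM in f/f and 1.71–3.33 CPM in MKO BMDMs (1.81, adjusted p = 0.242), and the anchoring protein *Akap12* was lower (-1.35, adjusted p = 0.228). Of 13 CREB target genes tested, 1 was higher and 2 lower at that limit (23.1%, beside 17.9% of all genes), *Rgs2* being the former and *Pde4b* and *Nfil3* the latter. *Nr4a1*, a classical CREB target, was at 8.46, 15.4 and 73.7 CPM against 6.16, 4.61 and 54.2 CPM and overlapped between groups.

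In the livers of HFD-fed mice the differences were smaller. *Adcy9* was 1.35-fold lower and *Prkar1a* 1.15-fold lower in livers labelled MKO, without overlap between the groups, and *Gnas* was 1.10-fold higher, also without overlap. In whole tissue, fewer cells of a type and less RNA of a gene per cell cannot be told apart. None of the 9 members tested had an adjusted p under 0.05 with edgeR, as held for all 15062 genes (0% called), nor with DESeq2, which called 1.81% of its genes. At an unadjusted p under 0.05 there were 2 members, both lower, against 10.5% of all genes (5.27% higher and 5.18% lower). Leaving out any 1 library lowered that count, to 0 without MKO replicate 2 or 3 and to 1 without any of the other 4. The groups were apart in 3 members, 1 higher and 2 lower, against 17.3% of all genes (9.60% higher and 7.74% lower), and the median log2 fold change was -0.16 for the members and -0.01 for all genes.

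*Adcy9* was at 24.6, 30.1 and 22.7 CPM in livers labelled f/f and 21.9, 18.3 and 17.2 CPM in those labelled MKO. Its log2 fold change was -0.43 (SE 0.15, edgeR unadjusted p = 0.0210, adjusted p = 0.403), and it ran from -0.55 to -0.31 with each library left out. *Prkar1a* was at 137, 127 and 137 CPM against 116, 118 and 117 CPM. The spread within each group was small, and the log2 fold change was -0.20 (SE 0.08, edgeR unadjusted p = 0.0496, adjusted p = 0.478). *Gnas* was at 282, 294 and 288 CPM against 312, 298 and 342 CPM (log2 fold change 0.14, SE 0.10, edgeR adjusted p = 0.683).

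*Adcy7*, the leading cyclase of BMDMs, was at 3.38, 16.5 and 6.67 CPM in livers labelled f/f and 7.12, 11.2 and 2.34 CPM in those labelled MKO. Replicate 2 was the highest in both groups, and the groups overlapped (log2 fold change -0.36, SE 0.71, edgeR adjusted p = 0.908). The 8 macrophage markers summed to 135, 331 and 226 CPM and to 161, 305 and 133.1 CPM in the same libraries and were likewise highest in replicate 2 of each group. Without *Lyz2* the markers summed to 107.5, 271 and 181 CPM and to 159, 199 and 89.4 CPM, again highest in replicate 2. Their part in the *Adcy7* values was not tested.

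The other members overlapped between the liver groups. *Pde4a* was at 4.03, 4.41 and 7.40 CPM against 4.25, 7.74 and 2.69 CPM. *Pde4b* was at 5.82, 11.03 and 10.1 CPM against 9.39, 5.83 and 5.20 CPM (log2 fold change -0.40, SE 0.32, edgeR adjusted p = 0.712). *Pde4d* was at 4.50, 4.41 and 5.91 CPM against 5.34, 3.29 and 4.67 CPM. None of these phosphodiesterases had an unadjusted p under 0.248. The factors *Creb1* (15.3, 16.7 and 15.8 CPM against 12.8, 17.7 and 15.6 CPM) and *Crem* (19.4, 15.2 and 19.1 CPM against 23.8, 15.0 and 19.7 CPM) differed by log2 fold changes of -0.05 (SE 0.14) and 0.12 (SE 0.19). The sign of *Adcy7*, *Pde4a*, *Pde4d*, *Creb1* and *Crem* in liver turned when 1 or another library was left out.

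Of the 84 further pathway genes tested in liver, 8 were lower and 0 higher in livers labelled MKO at an unadjusted p under 0.05, and 0 passed the adjusted threshold in edgeR. These 8 were 9.52% of the 84, beside the 10.5% of all genes. Of 15 CREB target genes tested, 3 of them members, 4 were lower at that limit (*Dusp1*, *Sik1*, *Nr4a1* and *Fos*), 0 were higher and 11 did not pass. These 4 were 26.7% of the 15, beside 10.5% of all genes (5.18% lower). Whether they reflect cAMP was not tested. *Dusp1*, a MAP kinase phosphatase, was at 142, 179 and 166 CPM against 54.3, 49.3 and 41.9 CPM (log2 fold change -1.74, SE 0.14, edgeR adjusted p = 0.0634). *Sik1*, a kinase that CREB induces and that restrains its coactivators, was at 45.4, 34.6 and 84.2 CPM against 11.4, 12.7 and 11.5 CPM (-2.20, SE 0.33, adjusted p = 0.303). *Nr4a1* was at 30.6, 28.3 and 48.5 CPM against 5.17, 14.0 and 3.61 CPM (-2.23, adjusted p = 0.334), and *Fos* differed by -1.08 (adjusted p = 0.437). Of the rest, the coactivator *Crtc2* was lower (-0.21, adjusted p = 0.466), as were the cyclase *Adcy1* (-1.68, adjusted p = 0.334) and the exchange factor *Rapgef4*, EPAC2 (-0.49, adjusted p = 0.417, groups overlapping). The glucagon receptor *Gcgr*, the other receptor list's most abundant gene per kilobase in liver, was at 238, 193 and 252 CPM against 235, 251 and 256 CPM (log2 fold change 0.12, adjusted p = 0.794).

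**Figure D3:**
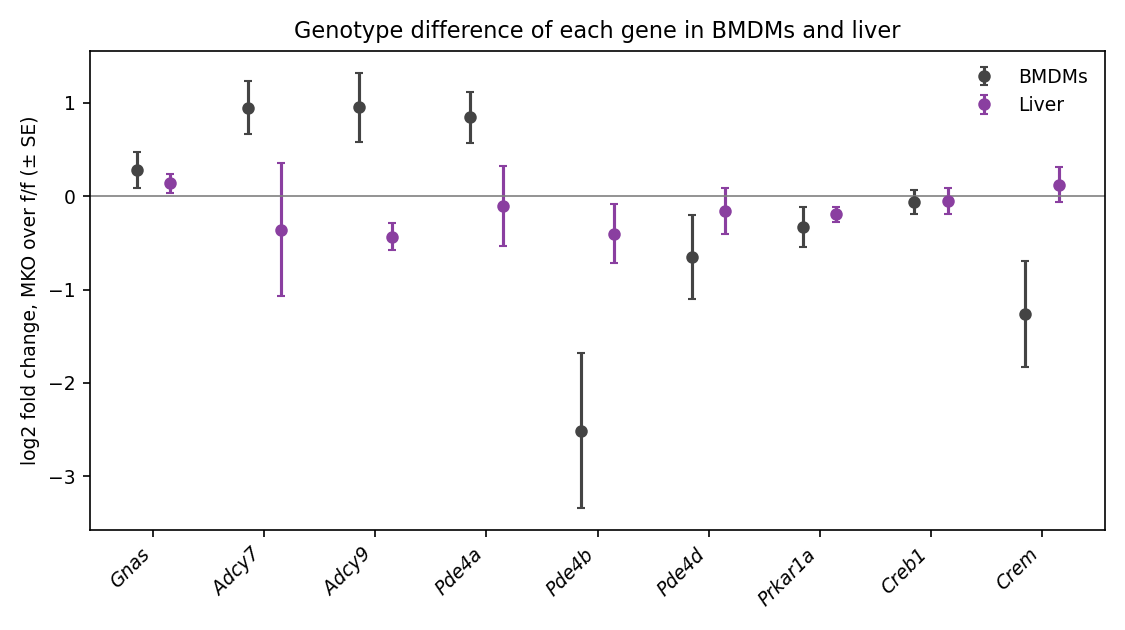
Points give the log2 fold change of MKO over f/f (y axis) with its SE for the 9 genes tested in BMDMs (grey) and liver (purple), n = 3 per group. Adcy9 lies at 0.95 in BMDMs and -0.43 in liver, while Creb1 lies near 0 in both, at -0.06 and -0.05.

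The difference between the genotype effects of BMDMs and liver was tested itself, over all 12 libraries. With the livers as labelled, *Adcy9* had the lowest p of the members, its groups being apart in both tissues with the opposite order, and its effect in BMDMs exceeded that in liver by 1.38 on the log2 scale (SE 0.43, edgeR unadjusted p = 0.00837, adjusted p = 0.226). In DESeq2 the same difference was 1.41 with an adjusted p of 0.0465, and without f/f BMDM replicate 3 it was 1.06 in edgeR (adjusted p = 0.0834). With the liver headings exchanged, a setting added after seeing the data, it was 0.54 (SE 0.42, edgeR unadjusted p = 0.229, adjusted p = 0.578), and *Pde4b* then had the lowest p (-2.89, SE 0.96, unadjusted p = 0.0128, adjusted p = 0.272). In edgeR, 0 of 9 members passed the adjusted threshold and 1 had an unadjusted p under 0.05, against 0.00580% and 14.5% of the 17246 genes tested. DESeq2 gave 1 member, against 4.62% of its genes. For *Pde4b* the difference was -2.11 (SE 0.96, edgeR adjusted p = 0.345) and for *Crem* -1.39 (SE 0.65, adjusted p = 0.361), for *Adcy7* 1.30 (SE 0.85, adjusted p = 0.504) and for *Creb1* -0.02 (SE 0.20).

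BMDMs and livers of the same genotype were compared next, to see which members mark which tissue. Culture, hormone, diet and tissue cannot be told apart in this contrast, and CPM were scaled anew for each pair of groups. In f/f samples, *Pde4b* and *Adcy7* were 23.1- and 7.17-fold higher and *Creb1* 2.08-fold higher in BMDMs, while *Adcy9* was 5.87-fold and *Pde4d* 3.02-fold lower. With edgeR, 6 of 9 members had an adjusted p under 0.05, against 63.4% of all 15931 genes (29.6% higher and 33.8% lower in BMDMs). In MKO samples, which share no library with the former, it was 8 of 9, against 75.7% of 16267 genes. There 36.2% of all genes were higher and 39.5% lower in BMDMs, and the members split into 4 higher and 4 lower, as they had into 3 and 3 in f/f samples.

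*Adcy7* was at 101, 99.8 and 50.2 CPM in f/f BMDMs and 4.36, 21.8 and 8.79 CPM in livers labelled f/f (log2 fold change 2.84, SE 0.63, edgeR adjusted p = 0.00830). In MKO samples it was at 172, 166 and 190.1 CPM against 10.0, 15.8 and 3.26 CPM (4.17, SE 0.52, adjusted p = 0.000354). *Adcy9* went the other way in both genotypes, at 7.19, 7.27 and 2.74 CPM against 31.7, 39.8 and 29.9 CPM in f/f (-2.55, SE 0.40, adjusted p = 0.00196) and at 12.7, 10.7 and 12.9 CPM against 30.9, 25.7 and 24.0 CPM in MKO samples (-1.15, SE 0.14, adjusted p = 0.00025). The 2 cyclases of the set were thus on opposite sides of the tissue contrast, though *Adcy9* lost its call in MKO samples when only library totals were used (-0.20, adjusted p = 0.204). That scaling moved the median of all genes from -0.06 to 0.89 in MKO samples, and *Adcy9* lay below the median in both scalings.

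*Pde4b* was at 157, 141 and 521 CPM in f/f BMDMs and 7.51, 14.6 and 13.3 CPM in liver (log2 fold change 4.53, SE 0.66, edgeR adjusted p = 0.0015). In MKO samples it was at 26.8, 21.8 and 107.3 CPM against 13.2, 8.22 and 7.26 CPM (2.44, SE 0.67, adjusted p = 0.0141). Every BMDM library lay above every liver library in both genotypes. *Pde4d* was lower in BMDMs, by -1.60 in f/f (SE 0.39, adjusted p = 0.0121) and -2.06 in MKO samples (SE 0.34, adjusted p = 0.00122). With library totals alone the f/f value was -0.76 (edgeR adjusted p = 0.193), where the median of all genes was 0.78. *Pde4a* overlapped between the tissues in both genotypes, at -0.42 (adjusted p = 0.349) and 0.55 (adjusted p = 0.212).

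*Creb1* was at 50.2, 41.4 and 38.8 CPM in f/f BMDMs and 19.7, 22.1 and 20.9 CPM in liver, and at 46.4, 43.7 and 45.7 CPM against 18.0, 25.0 and 21.8 CPM in MKO samples. The log2 fold changes were nearly the same, 1.06 (SE 0.15, edgeR adjusted p = 0.00132) and 1.07 (SE 0.13, adjusted p = 0.000295). *Crem* overlapped between the tissues in f/f samples, at 8.26, 7.83 and 27.1 CPM against 25.0, 20.1 and 25.2 CPM (-0.71, SE 0.51, adjusted p = 0.262). f/f BMDM replicate 3 decided this, because without it the value was -1.52 (adjusted p = 0.00119). In MKO samples *Crem* was lower in BMDMs, at 5.30, 4.65 and 9.53 CPM against 33.5, 21.2 and 27.5 CPM (-2.07, SE 0.32, adjusted p = 0.000955).

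*Prkar1a* was higher in BMDMs in MKO samples, at 215, 212 and 242 CPM against 163, 166 and 163 CPM (log2 fold change 0.44, SE 0.09, edgeR adjusted p = 0.00309), and was 0.55 in f/f samples (SE 0.22, adjusted p = 0.0698). The direction of *Gnas* depended on the scaling. With TMM factors it was lower in BMDMs in f/f (-0.65, SE 0.20, edgeR adjusted p = 0.0299) and in MKO samples (-0.48, SE 0.12, adjusted p = 0.00958), and with library totals alone it was 0.16 (adjusted p = 0.558) and 0.47 (adjusted p = 0.0152) on the other side of 0. Library totals moved the median of all genes from -0.05 to 0.78 in f/f and from -0.06 to 0.89 in MKO samples, and relative to that shift *Gnas* lay lower in both scalings.

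**Figure D4:**
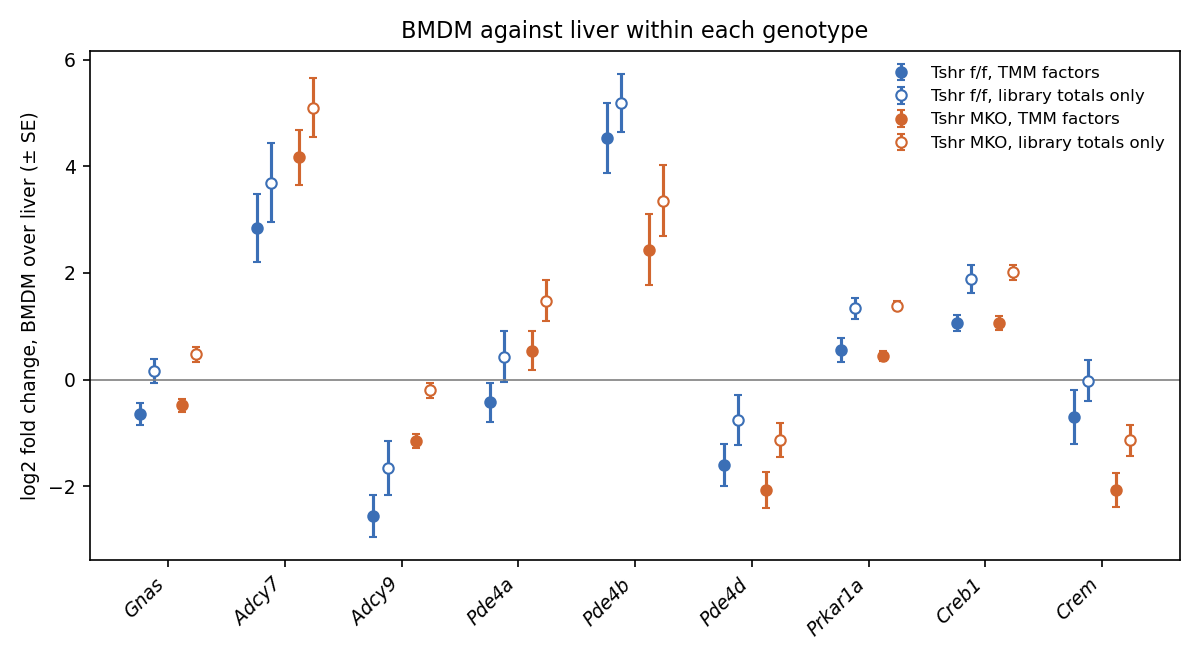
The y axis gives the log2 fold change of BMDM over liver with its SE, within f/f (blue) and MKO samples (orange), n = 3 per group, with TMM factors (filled) or library totals alone (open). Adcy7, Pde4b and Creb1 lie above 0 and Adcy9 and Pde4d below it under both scalings, whereas Gnas changes sides, from -0.65 to 0.16 in f/f samples.

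To order the genes by abundance, levels were expressed per kilobase of annotated exon (CPM per kilobase, scaled within the tissue). In f/f BMDMs the order was *Prkar1a* (84.1 ± 20.6, SD, n = 3), *Pde4b* (36.6 ± 28.8), *Gnas* (30.5 ± 4.79), *Adcy7* (17.6 ± 6.11), *Creb1* (4.47 ± 0.591), *Crem* (3.45 ± 2.63), *Adcy9* (1.56 ± 0.708), *Pde4a* (0.953 ± 0.309) and *Pde4d* (0.253 ± 0.107). The libraries of *Prkar1a* and *Pde4b*, *Pde4b* and *Gnas*, *Creb1* and *Crem*, *Crem* and *Adcy9*, and *Adcy9* and *Pde4a* overlapped, so that those neighbours could not be ranked. In MKO BMDMs the first were *Prkar1a* (67.0 ± 5.45), *Gnas* (36.9 ± 4.23) and *Adcy7* (34.0 ± 2.67), with *Pde4b* next at 6.42 ± 5.97, and the libraries of *Gnas* and *Adcy7*, of *Pde4b* and *Creb1*, and of *Pde4a* and *Crem* overlapped. In livers labelled f/f they were *Prkar1a* (31.0 ± 1.36) and *Gnas* (25.8 ± 0.527), followed by *Adcy9* (4.96 ± 0.744) and *Crem* (3.04 ± 0.394), and the same 4 genes led in livers labelled MKO, with *Gnas* first (28.4 ± 2.05) and overlapping *Prkar1a* (27.0 ± 0.197). Overlapping neighbours were also *Adcy7* and *Creb1*, and *Pde4b* and *Pde4a*, in both liver groups, and in livers labelled MKO *Adcy9* and *Crem*, *Adcy7* and *Pde4b*, and *Pde4a* and *Pde4d*. Per kilobase of the longest transcript in place of all exons, the order in f/f BMDMs was the same, but *Gnas* stood above *Prkar1a* in the other 3 groups. *Tshr* was last in every group.

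Within the families of enzymes, *Adcy7* gave 79.7% ± 3.29 of the summed CPM per kilobase of the 10 cyclases in f/f BMDMs and 84.3% ± 1.02 in MKO BMDMs, whereas *Adcy9* gave 6.87% and 7.51%. In liver *Adcy6* led, with 48.9% ± 5.55 and 56.9% ± 5.83, followed by *Adcy9* with 30.8% ± 3.28 and 24.8% ± 1.53. The summed level of the cyclases was 21.9 ± 6.93 in f/f BMDMs and 40.3 ± 2.74 in MKO BMDMs. Of the 16 cAMP phosphodiesterases, *Pde4b* made up 51.0% ± 15.1 of the sum in f/f BMDMs and 15.2% ± 10.1 in MKO BMDMs. There the leading genes were *Pde8a* (28.8% ± 4.86) and *Pde1b* (26.9% ± 5.14). The sum itself was 65.8 ± 32.2 in f/f and 37.7 ± 10.6 in MKO BMDMs. By library it was 45.3, 49.2 and 102.9 against 33.7, 29.6 and 49.7, so that the groups overlapped. Neither this difference nor that of the cyclase sums was tested. In liver *Pde8a* (34.2%) and *Pde3b* (28.1%) led in f/f samples, and *Pde4b* gave 3.54% ± 0.668.

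**Figure D5:**
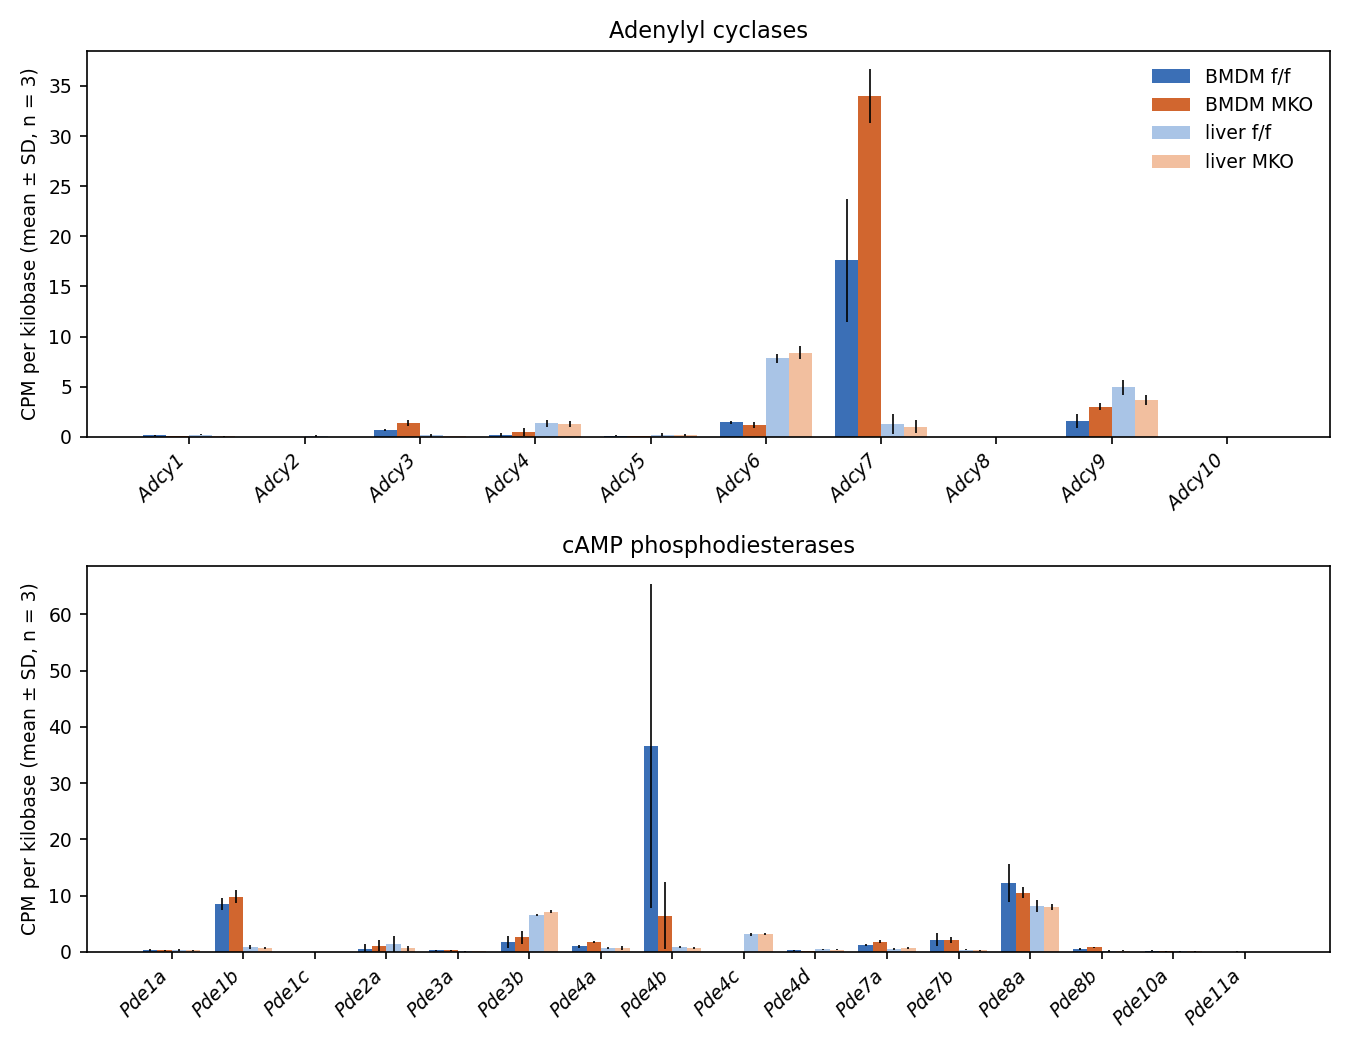
Bars give mean CPM per kilobase ± SD (n = 3, scaled within each tissue) of the adenylyl cyclases (top) and cAMP phosphodiesterases (bottom) in the 4 groups. Adcy7 is the tallest cyclase bar of BMDMs (17.6 and 34.0) and Adcy6 that of liver (7.83 and 8.39), and Pde4b, at 36.6 in f/f BMDMs, has the widest error bar.

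The gene whose profile over the 12 libraries was most like that of a member was sought among 17118 genes outside the pathway and marker lists, as the smallest root mean square difference of centred log2(CPM + 0.5). It was *Arl6ip1* for *Gnas* (0.104), *Rif1* for *Creb1* (0.107), *Smarca2* for *Adcy9* (0.185), *Zfp523* for *Pde4d* (0.218), *Tmem131l* for *Pde4a* (0.243), *Mbp* for *Adcy7* (0.255), *Cd38* for *Pde4b* (0.286) and *Zadh2* for *Crem* (0.302). The differences between tissues and the shared library scaling are part of these profiles.

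Across the wider pathway in the tissue contrast, 36 of 88 genes were higher and 23 lower in f/f BMDMs than in liver at an edgeR adjusted p under 0.05, and 42 and 26 in MKO samples. In all, 59 of the 88 passed in f/f samples (67.0%, beside 63.4% of all genes) and 68 of 88 in MKO samples (77.3%, beside 75.7%). *Gcgr*, the glucagon receptor, was on the liver side, with 0 counts in each f/f BMDM library and 307, 256 and 332 CPM in the livers. *Adcy6*, the leading cyclase of liver, was lower in BMDMs by -3.31 (adjusted p = 3.09e-05) in f/f samples. On the BMDM side were the histamine receptor *Hrh2* (6.93, adjusted p = 0.000366), the PKA inhibitor *Pkib* (4.04, adjusted p = 0.000181), the regulatory subunit *Prkar2b* (5.41, adjusted p = 0.00049) and the receptor kinase *Grk2* (1.87, adjusted p = 0.000579). All 7 genes of receptor desensitization were higher in BMDMs in MKO samples at that limit, and 5 of 7 in f/f samples, beside 36.2% and 29.6% of all genes.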

How the data were processed

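RNA was sequenced as strand-specific libraries from 6 BMDM samples and 6 livers. The authors deposited a table of raw read counts per gene, without normalization. The submitters' processing notes name FastQC 0.11.2, STAR, StringTie and mm10, and the counting program is not given in the sources used here. The main test was the robust quasi-likelihood test of edgeR 4.0.16 (R 4.3.3) after filterByExpr and TMM scaling, fitted on all genes of each comparison with Benjamini-Hochberg adjustment, because the model of the study takes no spread between replicates. Each SE is the absolute log2 fold change divided by the root of F. Alternatives were DESeq2 1.42.0, RLE, upper-quartile and no factors, a filter at a mean of 50 counts or none, all 12 libraries fitted together, a replicate block, a covariate from the identifier's first letter (liver), leaving out each library and, added later, exchanged liver headings. Scripts were tested on simulated data. Members, lists and tests were chosen with earlier results of these data known. Named beyond the members were at most the 3 genes of lowest p per list, comparison and direction, the highest per kilobase and the nearest profiles; *Nr4a1* in BMDMs, *Fos* in liver and single marker genes were picked after its values were known. Gene models were GENCODE M21 and promoters RefSeq, with entries for 8 of 10 members. Summaries were written in python 3.11.15 (matplotlib 3.10.9, numpy 2.4.6, pandas 2.3.3). Library totals are given in the report. The nearest profile of *Prkar1a* and 1 marker list are not reported here.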

Additional observations from a re-analysis of the deposited data

Results flagged for a closer look

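*Adcy9* was the result singled out for a closer look, because its genotype difference was opposite in the 2 tissues, with the livers as labelled. All 3 MKO BMDM libraries lay above the f/f ones, and all 3 livers labelled MKO lay below those labelled f/f. The difference between the effects was 1.38 on the log2 scale (SE 0.43), with an edgeR unadjusted p of 0.00837 and an adjusted p of 0.226, and with each library left out it ran from 1.06 to 1.58. The opposition rests on the liver labels. With the liver headings exchanged both effects had the same sign, and the difference was 0.54 (SE 0.42, edgeR unadjusted p = 0.229, adjusted p = 0.578).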

How the results depend on the processing

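The number of members with an adjusted p under 0.05 was 0 between genotypes in BMDMs and in liver, and 0 for the difference between tissues, under the edgeR alternatives run. DESeq2 gave 2, 0 and 1, against 7.23%, 1.81% and 4.62% of its genes. Between tissues the count was 5 to 7 in f/f and 7 to 9 in MKO samples over all alternatives. With each library left out the counts ran from 0 to 0 in the first 3 comparisons, 5 to 7 in f/f and 8 to 9 in MKO samples. Scaling by library totals alone was added after seeing the data. It turned *Gnas* to 0.16 and *Pde4a* to 0.43 between tissues in f/f and *Gnas* to 0.47 in MKO samples, and *Creb1* to 0.10 in BMDMs. In the difference between tissues it turned *Prkar1a* to 0.053 and *Creb1* to 0.12. *Creb1* in BMDMs was 0.0051 with upper-quartile factors and ran from -0.14 to 0.068 with a library left out. In liver, values with a library left out ran from -0.92 to 0.46 for *Adcy7*, -0.61 to 0.21 for *Pde4a*, -0.32 to 0.0078 for *Pde4d*, -0.18 to 0.062 for *Creb1* and -0.049 to 0.27 for *Crem*. In the difference between tissues, *Creb1* was 0.0016 with RLE factors and 0.018 with DESeq2, and -0.13 to 0.12 with a library left out, where *Prkar1a* ran from -0.25 to 0.095. The cause was not tested.

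No pairing of the samples by replicate number was evident. Same-numbered libraries had correlations of 0.096, 0.013 and 0.102 in BMDMs and -0.056, 0.217 and -0.021 in liver, and not every sample correlated best with its own number. With 3 libraries per group, such values cannot exclude a pairing. With the replicate block, 0 members passed the adjusted threshold between genotypes in either tissue (0.00651% and 0% of all genes), 5 passed between tissues in f/f (55.2%) and 8 in MKO samples (71.8%), and *Creb1* turned to 0.0036 in the difference between tissues. The number of members at an unadjusted p under 0.05 in BMDMs went from 4 to 5 with the block and to 2 without MKO replicate 1 or 2, and in liver from 2 to 0 with all 12 libraries in a fit, with library totals, with the first letter of the sample identifier or without MKO replicate 2 or 3, and to 1 with the block, without the filter or without any of the other 4 libraries. Exchanging the liver headings, also added later, left 0 members past the adjusted threshold for the difference between tissues and turned no member's sign. The biological coefficient of variation was 0.337 in BMDMs and 0.273 in liver, and *Tshr* was near or under the 3-count floor.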
